A study of Mus musculus with 4 samples.

Results

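The genes described here were the 39 members of the 4 mouse Hox clusters (HOXA, HOXB, HOXC and HOXD), taken by their symbols from the 32285 genes counted. Their transcripts were measured in 4 single-cell RNA-seq libraries of cultured mouse fat cells, 1 library per condition. iWAT_DFAT and eWAT_DFAT cells were de-differentiated fat (DFAT) cells, obtained from mature adipocytes of inguinal (iWAT) and epididymal (eWAT) white adipose tissue by ceiling culture, in which floating adipocytes attach to the upper wall of a filled, inverted flask and lose their lipid. iWAT_SVF and eWAT_SVF cells were adherent cells grown from the stromal vascular fraction (SVF) of the same 2 depots, that is, the cultured stromal and progenitor cells of the tissue. All cells came from male chow-fed C57BL/6J mice, were primary cultures detached with trypsin, and were sorted with the dye 7-AAD before capture. The sources used here did not give the number of mice or of cultures behind a library, and with 1 library per condition the spread between cultures could not be measured. Each difference below is therefore a difference between libraries, no p-value was computed, and the 95% intervals cover counting error only.

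Hox genes encode homeodomain transcription factors that give cells their position along the body axis of the embryo. Their order along each chromosome follows the order in which they are used along the axis, from low-numbered (anterior) to high-numbered (posterior) genes, and genes of the same number in different clusters descend from 1 ancestral gene. Cells of mesodermal origin, fat and skin fibroblasts among them, keep part of this pattern in the adult and in culture, and fat depots are known to differ in it. Numbers 1 to 3 are called anterior here, 4 to 8 central and 9 to 13 posterior.

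Cells were barcodes with 5000 to 75000 UMIs (unique molecular identifiers, each standing for 1 captured transcript), 200 to 7500 genes and under 10% mitochondrial UMIs. The libraries held 6464 to 7629 such cells, with medians of 22111 to 27617 UMIs per cell and 183664704 to 199357348 UMIs in all. At least 3 of 9 stromal markers were present in 94.3% to 99.2% of the cells. Tbx15, a factor of subcutaneous fat, stood at 91.3 and 103 CPM (UMIs per 1000000 UMIs of the library's cells) in the iWAT libraries and under 1 CPM in the eWAT libraries. Wt1, a factor of visceral fat, stood at 20.1 and 34.8 CPM in the eWAT libraries and under 1 CPM in the iWAT libraries, so both depot markers followed the labels. Any 2 libraries shared 13 to 20 cell barcodes. UMIs were counted at 3′ ends, so CPM values were not divided by gene length, and a comparison of levels between genes also reads how well each 3′ end was captured.

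Of the 39 members, 35 to 38 had at least 1 UMI in a library, and 26 reached a mean of 1 CPM over the 4 libraries, the minimum used for the comparisons below. Hox transcripts together made up 414 CPM in iWAT_DFAT, 403 CPM in eWAT_DFAT, 473 CPM in iWAT_SVF and 424 CPM in eWAT_SVF. A Hox UMI was found in 97.3% to 98.8% of the cells, with medians of 9 to 11 Hox UMIs per cell, and in 82.1% to 85.2% after each cell was thinned to 5000 UMIs. The sum of all Hox transcripts was thus close between depots, while its make-up was not. Posterior genes gave 47.5% and 44.4% of all Hox UMIs in iWAT_DFAT and iWAT_SVF, and 11.9% and 10.7% in eWAT_DFAT and eWAT_SVF. The posterior sum was 4.11-fold higher in iWAT than in eWAT DFAT cells (log2 ratio 2.04, interval 2.00 to 2.07) and 4.6-fold higher between the SVF cultures (2.20, interval 2.17 to 2.24). In the central class the order was the opposite, with 179 and 231 CPM in the iWAT libraries against 291 and 315 CPM in the eWAT libraries. The anterior class also stood lower in the iWAT libraries, at 38.4 and 31.4 CPM against 64.8 and 62.9 CPM.

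**Figure D1:**
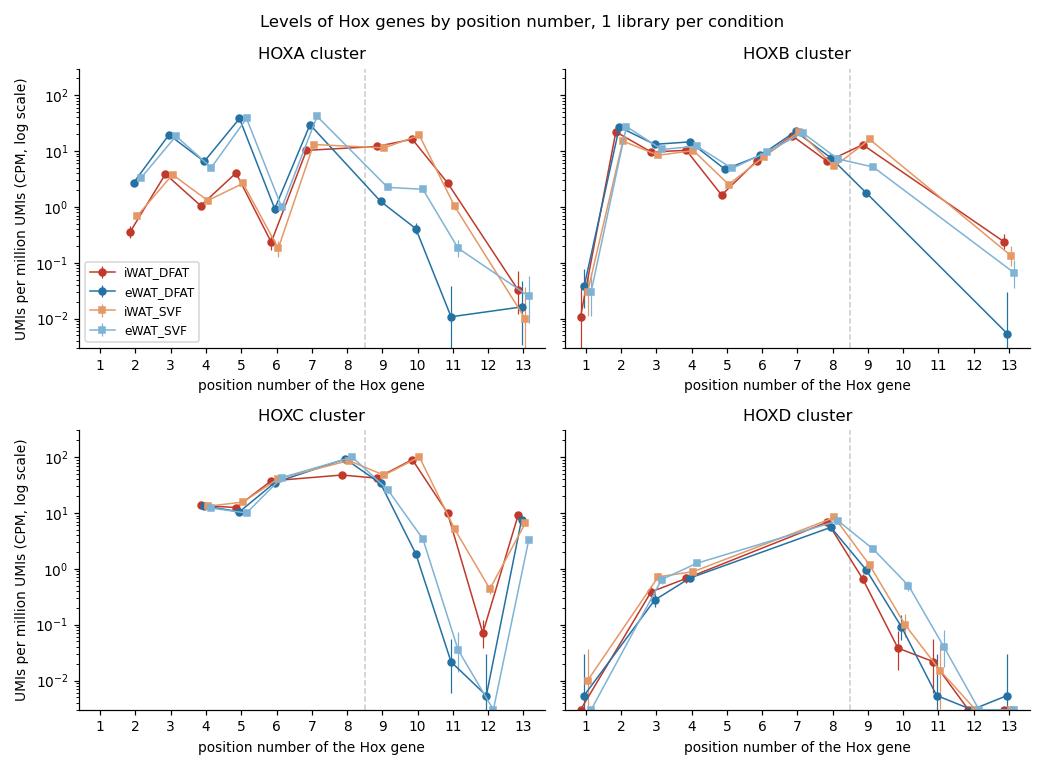
Levels of Hox genes in CPM (log axis, genes without a UMI at the bottom edge) by its position number, 1 panel per cluster and 1 colour per library, with 95% counting intervals; the dashed line separates central from posterior numbers. In the HOXA panel the eWAT libraries lie above the iWAT libraries from Hoxa2 to Hoxa7 and below them from Hoxa9 to Hoxa11, and in the HOXC panel the libraries part at Hoxc10 and Hoxc11 but not at Hoxc4 or Hoxc6.

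The switch from one depot to the other fell inside the HOXA cluster, between neighbouring genes. HOXA lies on the minus strand of chromosome 6 (mm10, chr6:52155590-52260880), and the annotated spans of Hoxa7 and Hoxa9 are 1.25 kb apart. The sequences below are the 250 bases before the RefSeq starts of 4 of its genes (build GRCm38.p6, each read 5′ to 3′ on the gene's strand), shown because the depot order turns between the second and the third. Capitals mark the motifs found in them. These are a CCAAT box read on the opposite strand (ATTGG) before Hoxa5, 2 sites of the caudal-type form TTTATGA before Hoxa7, and 1 GC box (GGGCGG) each before Hoxa9 and Hoxa10.
Hoxa5 (chr6:52204588-52204837, minus strand): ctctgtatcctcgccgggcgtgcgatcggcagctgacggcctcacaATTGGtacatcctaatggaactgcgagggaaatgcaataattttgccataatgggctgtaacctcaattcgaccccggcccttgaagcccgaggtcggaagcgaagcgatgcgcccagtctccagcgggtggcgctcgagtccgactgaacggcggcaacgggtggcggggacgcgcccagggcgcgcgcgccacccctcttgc
Hoxa7 (chr6:52218574-52218823, minus strand): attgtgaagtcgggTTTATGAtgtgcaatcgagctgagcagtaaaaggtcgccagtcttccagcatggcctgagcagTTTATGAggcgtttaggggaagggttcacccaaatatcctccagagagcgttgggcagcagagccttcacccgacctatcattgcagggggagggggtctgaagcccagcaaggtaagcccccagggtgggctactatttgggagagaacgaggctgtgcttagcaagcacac
Hoxa9 (chr6:52227371-52227620, minus strand): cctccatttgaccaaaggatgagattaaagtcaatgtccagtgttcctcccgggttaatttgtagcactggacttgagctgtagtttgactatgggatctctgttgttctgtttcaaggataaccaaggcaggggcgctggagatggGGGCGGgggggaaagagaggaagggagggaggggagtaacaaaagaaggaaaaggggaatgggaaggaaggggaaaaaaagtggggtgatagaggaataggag
Hoxa10 (chr6:52240855-52241104, minus strand): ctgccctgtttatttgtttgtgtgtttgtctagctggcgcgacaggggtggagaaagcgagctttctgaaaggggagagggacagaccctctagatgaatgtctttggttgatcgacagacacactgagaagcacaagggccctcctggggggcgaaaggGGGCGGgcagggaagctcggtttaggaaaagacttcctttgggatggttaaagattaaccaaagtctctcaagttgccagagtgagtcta

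The windows before Hoxa5, Hoxa7, Hoxa9 and Hoxa10 held 28, 7, 3 and 7 CpG dinucleotides, against a median of 6 over 32851 RefSeq promoter windows of the mouse and of 12 over the 22 Hox genes with such a window. The RefSeq starts of Hoxa7 and Hoxa9 lie inside longer annotated gene spans, so each window may sit downstream of another start. On both strands together, TTTATGA occurred in 3.35% of all windows and in 2 of the 22 Hox windows, those of Hoxa7 and Hoxd3. A CCAAT box occurred in 33.8% of all and in 13 Hox windows, a GC box in 32.7% of all and in 9, a TATA box (TATAAA) in 12.4% of all and in 3. The joint PBX and HOX form TGATTNAT was in 2.82% of all windows and in 1 Hox window, and the MEIS form TGACAG in 15.9% and in 2. These matches describe letters only, and none was tested for binding.

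Hoxa5, the central gene best known from adult fat, stood at 4.05 CPM in iWAT_DFAT (interval 3.76 to 4.35), 38.3 in eWAT_DFAT (37.4 to 39.2), 2.64 in iWAT_SVF (2.42 to 2.88) and 38.4 in eWAT_SVF (37.5 to 39.3). Both eWAT libraries lay above both iWAT libraries. It was 9.46-fold lower in iWAT than in eWAT DFAT cells (log2 ratio -3.24, interval -3.35 to -3.13) and 14.5-fold lower between the SVF cultures (-3.86, interval -3.99 to -3.73). Its neighbours on the anterior side stood in the same order. Hoxa2, which patterns the hindbrain, had 0.359, 2.73, 0.692 and 3.27 CPM in iWAT_DFAT, eWAT_DFAT, iWAT_SVF and eWAT_SVF, the order kept for all lists of 4 values below. Hoxa3 had 3.88, 19.6, 3.79 and 18.6 CPM, and Hoxa4 1.05, 6.51, 1.3 and 5.05 CPM. The 3 genes were 7.59-, 5.06- and 6.2-fold lower in iWAT DFAT cells, and 4.72-, 4.9- and 3.87-fold lower in iWAT SVF cells. The annotated span of Hoxa3 covers Hoxa4, Hoxa5 and Hoxa6 on the same strand, and the antisense gene Hoxaas3 covers the same stretch, so UMIs of these genes may not be fully told apart.

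Hoxa7, the last central gene of the cluster, had 10.3, 29.7, 13.1 and 41.9 CPM and was 2.88- and 3.19-fold lower in the iWAT libraries (log2 ratios -1.53 and -1.68). From Hoxa9 on, the order was reversed. Hoxa9 had 12.1, 1.26, 11.4 and 2.24 CPM, and was 9.62-fold higher in iWAT DFAT cells (3.27, interval 3.07 to 3.47) and 5.1-fold higher in iWAT SVF cells (2.35, interval 2.20 to 2.50). Hoxa10, which acts in the development of the hind limb and the genital tract, had 16.3, 0.409, 19.2 and 2.07 CPM. It was 39.9-fold higher in iWAT DFAT cells (5.32, interval 4.99 to 5.67) and 9.25-fold higher in iWAT SVF cells (3.21, interval 3.06 to 3.36). Its level in eWAT_SVF lay above that in eWAT_DFAT, and both lay far below the iWAT libraries. Hoxa11, just under the minimum with a mean of 0.982 CPM, had 496, 2, 206 and 36 UMIs, with the iWAT libraries above the eWAT libraries as for Hoxa10. Hoxa6 had 43, 172, 36 and 193 UMIs and lay on the side of the central genes, and Hoxa13 had 6, 3, 2 and 5 UMIs. Summed, the central HOXA genes were 4.82- and 5-fold lower, and the posterior HOXA genes 18.4- and 7-fold higher, in the iWAT DFAT and iWAT SVF libraries.

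HOXB, on the plus strand of chromosome 11, was a cluster in which most members stood at similar levels in the 4 libraries. Its sum was 89, 99.7, 88.2 and 98.8 CPM. Hoxb2, its most abundant member by the mean over the libraries, had 22.1, 26.9, 15.1 and 27.5 CPM, and Hoxb7 had 18.8, 22.5, 22.2 and 21.2 CPM. Hoxb3 had 9.65, 13.2, 8.41 and 10.7 CPM, Hoxb4 10.3, 14.6, 10.2 and 12.2 CPM, Hoxb6 6.69, 8.36, 7.94 and 9.74 CPM, and Hoxb8 6.52, 7.53, 5.32 and 7.21 CPM. None of these 6 genes differed by 2-fold between depots in either culture. Hoxb5 had 1.63, 4.7, 2.52 and 4.9 CPM, 2.89-fold lower in iWAT DFAT cells and 1.95-fold lower in iWAT SVF cells. At the posterior end the order was the opposite, and Hoxb9 had 13, 1.79, 16.2 and 5.18 CPM, 7.26-fold higher in iWAT DFAT cells (2.86, interval 2.69 to 3.03) and 3.13-fold higher in iWAT SVF cells (1.65, interval 1.54 to 1.75). Hoxb8 and Hoxb9 are neighbours, 5.31 kb apart. Hoxb1 had 2 to 7 UMIs per library, and Hoxb13, far from the rest of the cluster, had 44, 1, 27 and 13 UMIs.

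HOXC, on the plus strand of chromosome 15, carried the most Hox transcripts, 63.6% and 67.1% of them in iWAT_DFAT and iWAT_SVF and 48.3% and 46.8% in eWAT_DFAT and eWAT_SVF. Hoxc8, a central gene, was the most abundant Hox gene of both eWAT libraries and second to Hoxc10 in both iWAT libraries, with 47.8, 92.7, 86.7 and 100 CPM. It was lower in iWAT_DFAT than in the other 3 libraries, 1.94-fold against eWAT_DFAT and 1.82-fold against iWAT_SVF. Hoxc6 had 37.5, 34.9, 41.2 and 43 CPM, Hoxc4 13.7, 13.4, 13.2 and 12.2 CPM, and Hoxc5 12.5, 10.5, 15.7 and 10 CPM, with no depot difference of 2-fold. The annotated span of Hoxc5 overlaps Hoxc6, Hoxc8, Hoxc9 and Hoxc10 on the same strand, which leaves the Hoxc5 counts uncertain. Hoxc9, posterior by its number, had 42, 33.8, 47.5 and 26.3 CPM and was 1.81-fold higher in iWAT SVF cells. It thus differed far less between depots than Hoxa9 or Hoxb9, the genes of the same number.

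Hoxc10, a gene of the lumbar and hind limb region, lies 4.54 kb beyond Hoxc9 and showed the sharpest difference among the abundant members. It stood at 90.4 CPM in iWAT_DFAT (interval 89 to 91.8), 1.86 in eWAT_DFAT (1.67 to 2.07), 101 in iWAT_SVF (99.5 to 102) and 3.44 in eWAT_SVF (3.19 to 3.71). It was the most abundant Hox gene of both iWAT libraries, 48.6-fold higher than in eWAT DFAT cells (5.60, interval 5.45 to 5.76) and 29.3-fold higher than in eWAT SVF cells (4.87, interval 4.76 to 4.99). Hoxc11 was almost absent from the eWAT libraries. It had 1834, 4, 1030 and 7 UMIs (9.99, 0.0216, 5.17 and 0.0354 CPM), 463-fold higher in iWAT DFAT cells (8.86, interval 7.50 to 10.73) and 146-fold higher in iWAT SVF cells (7.19, interval 6.14 to 8.51). Hoxc12, between Hoxc11 and Hoxc13 on the chromosome, had 13, 1, 87 and 0 UMIs. Against a floor of 3 UMIs it was at least 28.7-fold higher in iWAT_SVF than in eWAT_SVF. Hoxc13, the last gene of the cluster and known from hair and nails, broke this order with 9.03, 7.59, 6.48 and 3.23 CPM. It was 2-fold higher in iWAT SVF cells (interval of the log2 ratio 0.86 to 1.14, at the limit used below) and differed little between the DFAT libraries (0.25).

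HOXD, on the plus strand of chromosome 2, gave only 1.88% to 2.82% of all Hox UMIs. Hoxd8 had 6.85, 5.54, 8.31 and 7.26 CPM and Hoxd9 had 0.664, 0.959, 1.16 and 2.25 CPM. Hoxd9, the member with the lowest mean above the minimum at 1.26 CPM, did not share the iWAT excess of Hoxa9, Hoxb9 and Hoxc9, and its log2 ratios between depots were -0.53 and -0.96. Hoxd3 had 51 to 143 UMIs and Hoxd4 124 to 249 UMIs per library. The posterior members were sparse in both depots: Hoxd10 had 7, 17, 20 and 99 UMIs, Hoxd11 1 to 8 UMIs, Hoxd13 1 UMI in eWAT_DFAT alone and Hoxd12 none. Hoxd1 had 0 to 2 UMIs. Genes of the number 10 summed to 107, 2.36, 120 and 6.01 CPM, so that the iWAT levels of this number came from Hoxc10 and Hoxa10.

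Across the 26 members at the minimum level, 5 were at least 2-fold higher in iWAT than in eWAT DFAT cells (Hoxa9, Hoxa10, Hoxb9, Hoxc10 and Hoxc11), where 8.74% of all 12972 genes at that level were. Another 6 were at least 2-fold lower (Hoxa2, Hoxa3, Hoxa4, Hoxa5, Hoxa7 and Hoxb5), against 5.56% of all genes. Between the SVF cultures 6 were higher in iWAT, the same 5 and Hoxc13 (0.80 to 0.99 on the log2 scale in 7 other settings), against 4.56% of all genes, and 5 were lower, the HOXA genes of numbers 2 to 5 and 7, against 4.86%. In either direction this was 42.3% of the members in each culture, beside 14.3% of all genes for the DFAT cells and 9.43% for the SVF cells. The median log2 ratio of the members was -0.24 and -0.13, that of all genes 0.08 and 0.06. Each higher member had a posterior number, and each lower member had a number from 2 to 7. Hoxc11 reached the minimum through the iWAT libraries alone, and Hoxa2 through the eWAT libraries alone. Their part in these counts is therefore no independent support for a depot difference.

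**Figure D2:**
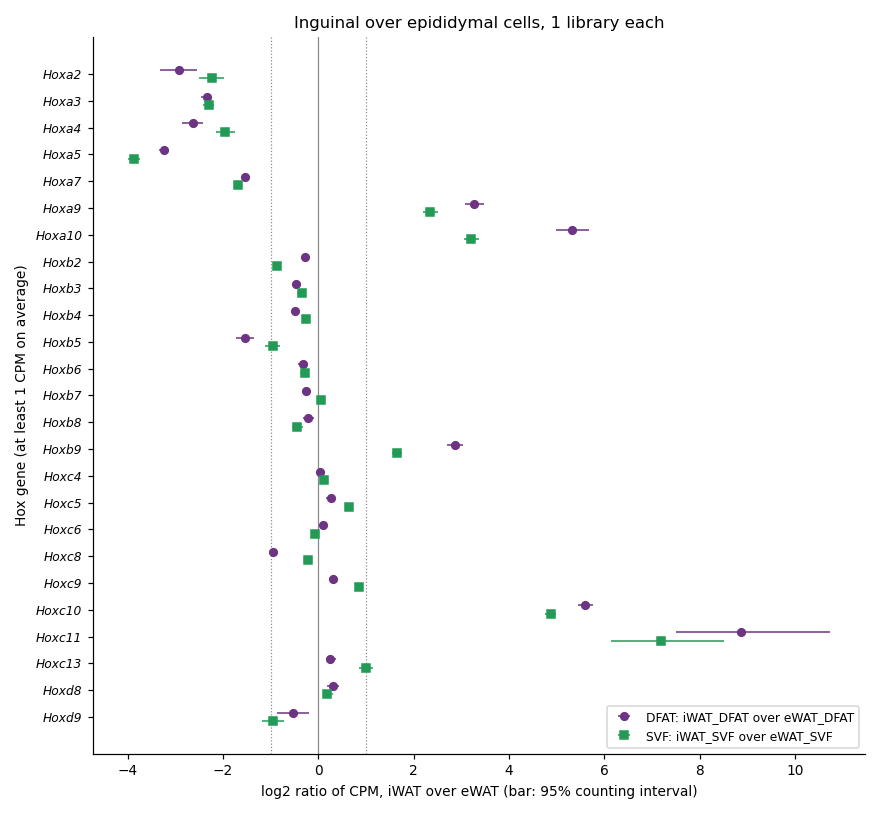
Log2 ratio of CPM, iWAT over eWAT, for 25 of the Hox members at the minimum level in chromosomal order, for DFAT cells and for SVF cultures, with 95% counting intervals; dotted lines mark 2-fold. The points run from -3.86 (Hoxa5, SVF) to 8.86 (Hoxc11, DFAT), and most HOXB and HOXC members below number 9 lie between the dotted lines.

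The 5 members higher in both iWAT libraries had wider depot ratios in the DFAT than in the SVF libraries. Hoxa10 had log2 ratios of 5.32 and 3.21, Hoxc11 8.86 and 7.19, Hoxb9 2.86 and 1.65, Hoxa9 3.27 and 2.35 and Hoxc10 5.60 and 4.87. For 4 of these genes, Hoxc11 aside, the wider gap followed mainly from a lower level in eWAT_DFAT than in eWAT_SVF, since the iWAT libraries were close to each other for them. These contrasts share libraries with the culture comparisons that follow and add no evidence to them. The other posterior members stood the other way, with 0.31 and 0.85 for Hoxc9, 0.25 in DFAT cells and 2-fold in SVF cells for Hoxc13, and -0.53 and -0.96 for Hoxd9, and the log2 ratio of the posterior sum was 2.04 in DFAT and 2.20 in SVF cells. Whether the depot difference itself depends on the culture could not be tested with 1 library per condition.

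Between DFAT and SVF cultures of the inguinal depot none of the 26 was 2-fold higher or lower in DFAT cells, where 10.5% and 6.75% of all genes were. The largest differences were those of Hoxa2 (log2 ratio -0.95, interval -1.39 to -0.51), Hoxc11 (0.95, interval 0.84 to 1.06), Hoxc8 (-0.86, interval -0.90 to -0.82), Hoxd9 (-0.80), Hoxb5 (-0.63, interval -0.84 to -0.42) and Hoxa5 (0.61, interval 0.45 to 0.78). In the epididymal depot 1 member was higher in DFAT cells, against 8.1% of all genes, and 3 were lower, against 7.47%. The share past 2-fold in either direction was 15.4% of the members and 15.6% of all genes. Hoxc13 was 2.35-fold higher in eWAT_DFAT (1.23, interval 1.09 to 1.37). Hoxa10 was 5.06-fold lower (-2.34, interval -2.71 to -1.98), Hoxb9 2.89-fold lower (-1.53, interval -1.71 to -1.35) and Hoxd9 2.34-fold lower (-1.23, interval -1.49 to -0.97). Hoxa9 and Hoxc10 stood on the same side at -0.83 and -0.89. Below the minimum, Hoxa11 had 2 UMIs in eWAT_DFAT and 36 in eWAT_SVF, but 496 in iWAT_DFAT and 206 in iWAT_SVF (log2 ratio 1.39, interval 1.15 to 1.63). Hoxc12 had 13 UMIs in iWAT_DFAT and 87 in iWAT_SVF (-2.62, interval -3.59 to -1.78).

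**Figure D3:**
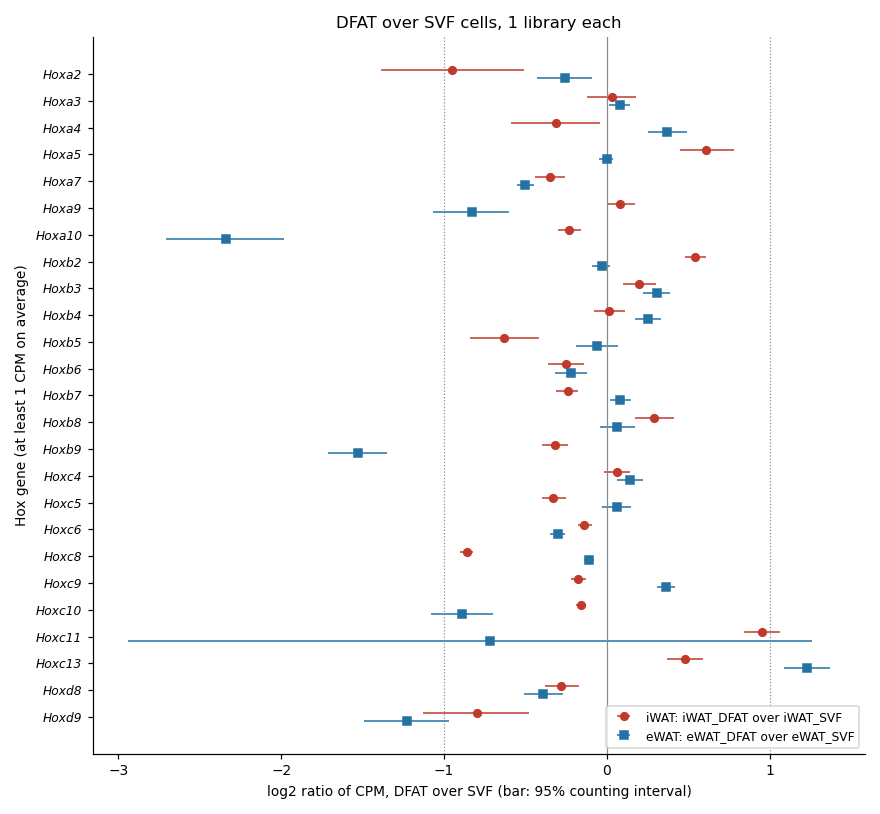
Log2 ratio of CPM, DFAT over SVF culture, for the same 25 members in the inguinal and in the epididymal depot, with 95% counting intervals; dotted lines mark 2-fold. Inguinal points stay between the dotted lines, and the epididymal points of Hoxa10, Hoxb9, Hoxd9 and Hoxc13 lie beyond them.

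The culture difference of Hoxd9 moved with the cells kept: without cells that carry markers of another type it was -0.93, and with cells that have a Pdgfra UMI alone it was also -0.93. Cells with endothelial markers numbered 158 in eWAT_DFAT and 168 in eWAT_SVF. The difference of Hoxc13 was 0.99 in cells without a UMI of the mitotic genes Mki67 and Top2a and 0.99 after thinning. That of Hoxa10 was -1.76 after thinning, when few UMIs of this gene were left.

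The depot difference was also seen in the share of cells in which a gene was detected. Hoxc10 had a UMI in 78.8% and 81% of iWAT_DFAT and iWAT_SVF cells, and in 3.59% and 5% of eWAT_DFAT and eWAT_SVF cells. After thinning to 5000 UMIs these shares were 34%, 36.4%, 0.913% and 1.35%. Hoxa5 had a UMI in 52.4% and 52.9% of the eWAT_DFAT and eWAT_SVF cells and in 8.95% and 6.57% of the iWAT_DFAT and iWAT_SVF cells, and after thinning in 15.2%, 16.3%, 1.95% and 1.24%. Hoxc8 was detected in 60.8% to 77.3% of the cells of all libraries and Hoxc6 in 54.3% to 62%. After thinning, these shares were 21.2% to 35.6% for Hoxc8 and 15.1% to 18% for Hoxc6. Free RNA, taken from droplets with 1 to 100 UMIs, held Hox transcripts in similar amounts to the cells of the same library, with 72.2, 1.21, 82.2 and 2.11 CPM of Hoxc10 and 3.45, 27.3, 2.24 and 31 CPM of Hoxa5, and 33.3 to 64.9 CPM of Hoxc8. Endothelial-marker cells, taken as cells of another type, gave a background for the eWAT shares. After thinning, Hoxc10 was found in 0 of 158 such cells in eWAT_DFAT, which allows a share of up to 2.31%, and in 0 of 168 in eWAT_SVF, which allows up to 2.17%. Their median depths were 12328 and 17136 UMIs, against 27425 and 27617 UMIs over all cells of these libraries. The thinned eWAT shares of Hoxc10 lay under these limits. With 0 such cells found, the limits follow from the number of endothelial-marker cells alone. This comparison therefore could not tell expression and background apart. In the iWAT_SVF library, cells with neural (Schwann) markers gave 6.85% (interval 3.33% to 12.2%) against 36.4% of all cells.

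Detection of 5 of the posterior genes, a set chosen with earlier results of these data known, was counted per cell. Among the posterior genes left out of this set, Hoxc9 was detected in 50.6% and 42.6% of the eWAT_DFAT and eWAT_SVF cells. Hoxc13 was detected in 16.2% and 7.83% of them and Hoxb9 in 4.08% and 9.89%. Hoxb9 was left out though it was at least 2-fold higher in iWAT in both cultures. Hoxa11 was taken in though it lay under the minimum. Of the 5 genes Hoxa9, Hoxa10, Hoxa11, Hoxc10 and Hoxc11, at least 1 was detected in 87.7% and 87.2% of the iWAT_DFAT and iWAT_SVF cells, and in 6.1% (394) and 9.16% (618) of the eWAT_DFAT and eWAT_SVF cells. At least 2 were detected in 69 eWAT_DFAT and 209 eWAT_SVF cells, and at least 3 in 17 and 71. No expected number was computed from detection shares and depth. These counts therefore do not show whether the transcripts were spread evenly over the cells. Hoxc10 itself was found in 232 eWAT_DFAT cells, 69 of them with 2 UMIs or more and at most 8, and in 337 eWAT_SVF cells, 156 of them with 2 or more and at most 13.

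The eWAT cells with a Hoxc10 UMI also held more of the HOXA genes of numbers 9 and 10 than the eWAT cells without one. In eWAT_SVF, Hoxa10 was detected in 35.9% of the cells with Hoxc10 (interval 30.8% to 41.3%) and in 1.76% of the others (1.46% to 2.12%), and its level was 20 against 0.936 CPM (log2 ratio 4.42, interval 4.13 to 4.71). In eWAT_DFAT, Hoxa10 was detected in 10.8% (7.1% to 15.5%) against 0.53% (0.365% to 0.743%), at 5.01 against 0.213 CPM (4.55, interval 3.86 to 5.24). The level of Hoxa10 in the eWAT_SVF cells with Hoxc10 was close to the 19.2 CPM of the whole iWAT_SVF library. That in the eWAT_DFAT cells with Hoxc10, at 5.01 CPM, lay well below the 16.3 CPM of the whole iWAT_DFAT library. Hoxa9 stood at 8.43 against 0.955 CPM in eWAT_DFAT (3.14, interval 2.70 to 3.56) and at 15 against 1.44 CPM in eWAT_SVF (3.38, interval 3.10 to 3.66). Hoxc11 was found in 2 and 5 of the cells with Hoxc10, and in 1 cell without it in each library. Among the 25 other members, 4 were at least 2-fold higher in the cells with Hoxc10 in eWAT_DFAT (Hoxa9, Hoxa10, Hoxc11 and Hoxd9), against 0.293% of all genes, and 1 was lower (Hoxb5), against 2.26%. In eWAT_SVF 3 were higher (Hoxa9, Hoxa10 and Hoxc11), against 0.424%, and 0 were lower, against 2.77%.

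**Figure D4:**
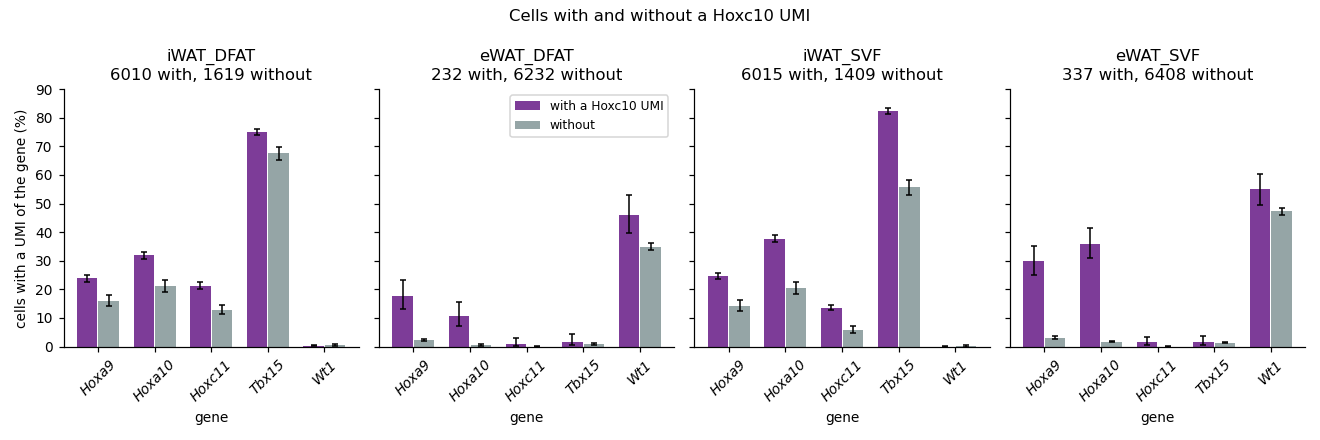
Percent of cells with a UMI of Hoxa9, Hoxa10, Hoxc11, Tbx15 and Wt1 among cells with and without a Hoxc10 UMI, 1 panel per library, with exact 95% binomial intervals. In the eWAT panels Hoxa9 and Hoxa10 are detected more often in cells with Hoxc10, while Tbx15 stays under 2% and Wt1 above 30% in both kinds of cell.

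The subcutaneous marker was rare in these eWAT cells. Tbx15 was detected in 1.72% of the eWAT_DFAT cells with Hoxc10 and 0.866% of those without, and in 1.78% and 1.37% in eWAT_SVF. Wt1, the visceral marker, was detected in 46.1% against 34.9% and in 54.9% against 47.3%. Of their central genes, Hoxc8 stood at 92.6 against 92.7 CPM in eWAT_DFAT and at 92.2 against 101 CPM in eWAT_SVF, and Hoxa5 at 34.2 against 38.4 and at 26.4 against 39.1 CPM. Hoxb9 stood at 2.77 against 1.75 CPM in eWAT_DFAT and at 4.18 against 5.25 CPM in eWAT_SVF. The cells with Hoxc10 had somewhat more UMIs, with medians of 31767 against 27319 in eWAT_DFAT and 31125 against 27377 in eWAT_SVF. When barcodes shared between libraries, the 5% of cells with most UMIs, cells with markers of another type or cells with a Tbx15 UMI were left out, the log2 ratio of Hoxa10 was 4.40 to 4.57 in eWAT_DFAT and 4.40 to 4.52 in eWAT_SVF. Those of Hoxa9 were 3.07 to 3.16 and 3.39 to 3.55. In the iWAT libraries, where most cells held Hoxc10, Hoxa10 stood at 16.9 against 13.7 CPM and at 19.9 against 14.1 CPM in cells with and without it. There 0 of 25 members were 2-fold higher in either library (background 0.671% and 0.324%). None was lower in iWAT_DFAT (0.995%), and Hoxd9 was lower in iWAT_SVF (2.67%), at 0.962 against 2.48 CPM.

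Cells with a Hoxa5 UMI were compared with the others for its HOXA neighbours. Hoxa3 stood at 24 against 13.2 CPM in eWAT_DFAT (0.86) and 22.6 against 12.6 CPM in eWAT_SVF (0.84), Hoxa4 at 7.74 against 4.72 CPM (0.71) and 6.03 against 3.58 CPM (0.75), and Hoxa2 at 3.37 against 1.78 CPM (0.92) and 4.12 against 1.98 CPM (1.05). In iWAT_SVF, Hoxa3 stood at 6.35 against 3.58 CPM (0.83) and Hoxa2 at 1.94 against 0.587 CPM (1.73), and in iWAT_DFAT Hoxa3 stood at 4.86 against 3.76 CPM (0.37). In eWAT_DFAT 0 members were past 2-fold, against 0.0694% of all genes higher and 1.28% lower. In eWAT_SVF 1 was higher (Hoxa2), against 0.162%, and 1 lower (Hoxd9), against 1.1%. In iWAT_SVF 1 was higher (Hoxa2), against 0.27%, and 0 were lower, against 1.06%, and in iWAT_DFAT 0 were past 2-fold, against 0.247% and 0.547%. Hoxa3 overlaps Hoxa4 and Hoxa5 on 1 strand, while Hoxa2 overlaps no counted gene on its strand. Whether shared reads add to these differences was not tested. Cells with a Hoxc13 UMI held 6.61 against 3.1 CPM of Hoxc10 in eWAT_SVF (1.09), the 1 member past 2-fold there, where 0.254% of all genes were higher and 1.73% lower. In iWAT_DFAT (0.177% and 0.887%), eWAT_DFAT (0.224% and 0.995%) and iWAT_SVF (0.231% and 1.06%) 0 members were past 2-fold between cells with and without Hoxc13.

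Hox levels were also compared between cells with markers of other cell types and the remaining cells of a library. Endothelial markers, which line blood vessels, were carried by 22, 158, 58 and 168 cells. Hoxd9 stood at 31 CPM in the endothelial-marker cells of iWAT_SVF (interval 21.6 to 43.1) against 0.989 in the other cells, and at 27.6 CPM (22.4 to 33.5) against 1.77 in eWAT_SVF. In the DFAT libraries it stood at 13.7 (5.53 to 28.3) against 0.628 in iWAT and at 5.17 (2.83 to 8.68) against 0.897 in eWAT. These cells gave 35 of 231 Hoxd9 UMIs in iWAT_SVF and 101 of 444 in eWAT_SVF, and their part in the culture difference of this gene above was not tested beyond leaving them out. Hoxd8 went the same way, at 39.3 against 6.76, 12.6 against 5.43, 44.3 against 8.1 and 27 against 6.89 CPM, and so did Hoxb7, at 39.3 against 18.7, 30.7 against 22.4, 53.2 against 22 and 44.2 against 20.8 CPM. Hoxc8 was lower in the endothelial-marker cells of each library, at 15.7 against 47.9, 31.8 against 93.6, 10.6 against 87.2 and 40.7 against 101 CPM. Without cells that also had a Pdgfra UMI, a stromal receptor, Hoxc8 stood at 0, 11.7, 9.94 and 17.1 CPM, and Hoxd9 at 24.3, 7.4, 33.1 and 40.1 CPM in the remaining 16, 123, 51 and 134 cells. Hoxc10 stood at 11.5 CPM against 101 in iWAT_SVF and at 0.819 against 3.49 in eWAT_SVF.

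**Figure D5:**
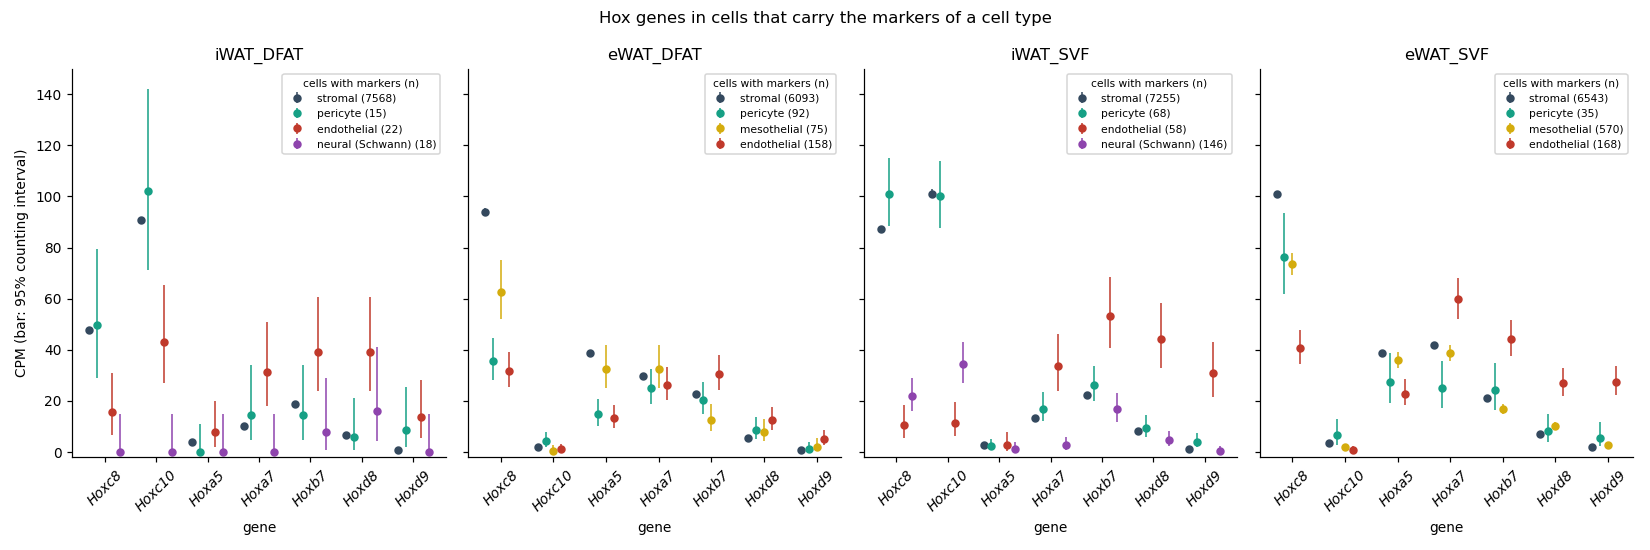
CPM of Hoxc8, Hoxc10, Hoxa5, Hoxa7, Hoxb7, Hoxd8 and Hoxd9 in cells that carry at least 3 markers of a cell type, 1 panel per library, for groups of 15 cells or more, with 95% counting intervals. Endothelial-marker cells lie below stromal-marker cells for Hoxc8 and above them for Hoxb7, Hoxd8 and Hoxd9 in all 4 panels.

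Pericyte-marker cells of iWAT_SVF (68 cells) resembled the rest of their library, with 100 against 101 CPM of Hoxc10 and 101 against 86.6 CPM of Hoxc8. Those of eWAT_DFAT (92 cells) had less Hoxc8 (35.7 against 93.4 CPM) and Hoxa5 (14.8 against 38.5 CPM) and more Hoxb2 (45.9 against 26.7 CPM). Mesothelial-marker cells, from the lining of the abdominal cavity, were frequent only in eWAT_SVF (570 cells). They had levels of Hoxa5 (35.9 against 38.6 CPM) and Hoxc6 (39 against 43.4 CPM) near those of the other cells, and lower levels of Hoxb2 (11.2 against 28.9 CPM) and Hoxb9 (1.59 against 5.48 CPM). Neural-marker cells of iWAT_SVF (146 cells, median 11393 UMIs) had less Hoxc10 (34.5 CPM, interval 27.2 to 43.2, against 102), Hoxa7 (2.72 against 13.2) and Hoxc9 (11.8 against 47.9), and a level of Hoxb7 (16.8 against 22.3) nearer to the rest. The 129 of them without a Pdgfra UMI held 11.4 CPM of Hoxc10 and 12 CPM of Tbx15.

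A UMI of the mitotic genes Mki67 or Top2a was found in 56.6%, 60.8%, 59.1% and 48.4% of the cells. Hoxc10 was higher in these cells in all 4 libraries, at 97.4 against 78.1 CPM in iWAT_DFAT (0.32), 2.12 against 1.34 in eWAT_DFAT (0.66), 106 against 91 in iWAT_SVF (0.23) and 4.35 against 2.4 in eWAT_SVF (0.85, interval 0.62 to 1.09). Hoxa9 went the same way, at 13.6 against 9.6 CPM in iWAT_DFAT and 2.78 against 1.62 in eWAT_SVF. Hoxb9 lay on the other side in the eWAT libraries, at 1.53 against 2.32 and 4.59 against 5.86 CPM. The sum of all Hox genes was also higher in the cells with a mitotic UMI, with log2 ratios of 0.15, 0.14, 0.13 and 0.13. The HOXA sum had 0.36, 0.29, 0.24 and 0.25, and the HOXD sum -0.17, -0.14, -0.04 and 0.00. These differences were all under 2-fold.

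The factors that bind DNA together with Hox proteins were present in every library. All 11 Pbx, Meis, Pknox and Tgif genes, which belong to the TALE class of homeobox genes and of which Pbx, Meis and Pknox are cofactors of Hox proteins, reached the minimum level. Meis1 had 48, 132, 38.1 and 88.1 CPM, with depot log2 ratios of -1.46 and -1.21, and Pknox2 had 27.1, 11, 27.7 and 22.8 CPM, with ratios of 1.30 and 0.28. Of the 11, 1 was at least 2-fold higher and 1 lower in iWAT DFAT cells (all genes, 8.74% and 5.56%), and 0 and 1 in iWAT SVF cells (4.56% and 4.86%). Of 28 Polycomb genes, which keep Hox genes silent, 27 reached the minimum, and none differed 2-fold between depots in either culture, where 14.3% and 9.43% of all genes did. Jarid2 had 73, 41.6, 19.1 and 19.3 CPM, higher in both DFAT libraries, where the list as a whole had 2 members higher and 1 lower in the inguinal and 1 and 1 in the epididymal depot (all genes, 10.5% and 6.75%, then 8.1% and 7.47%). Of 18 Trithorax genes, which keep Hox genes active, 1 was higher in iWAT DFAT cells and none was lower (all genes, 8.74% and 5.56%). This was Kdm6b, a histone demethylase acting on the Polycomb mark, with 76.6, 33.1, 29.7 and 30.3 CPM. Between the SVF depots 0 Trithorax genes were past 2-fold (all genes, 9.43%). In DFAT against SVF cells, 2 of the 18 were higher in the inguinal and 0 in the epididymal depot (all genes, 10.5% and 8.1%).

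Retinoic acid turns on Hox genes in the embryo, and part of the genes that make, bind and break it down differed between depots. Crabp1, which binds it in the cytoplasm, had 88.3, 1.56, 112 and 1.11 CPM, and Crabp2 had 3.26, 0.172, 1.34 and 0.278 CPM. Of the enzymes that make it, Aldh1a2 stood at 0.419, 13.2, 2.96 and 24.4 CPM and Aldh1a3 at 9.56, 43.5, 12.1 and 122 CPM, both higher in the eWAT libraries. Others of the list, named after their values were seen, did not stand that way in DFAT cells. Rdh10, which makes the precursor retinal, had 18.3 CPM in iWAT_DFAT and 8.48 in eWAT_DFAT, and Aldh1a1 had 76.6 and 60.6 CPM. In iWAT_SVF and eWAT_SVF, Rdh10 had 7.8 and 8.59 CPM. Aldh1a1 had 109 and 212 CPM there, higher in eWAT as for Aldh1a2 and Aldh1a3. Cyp26b1, which breaks retinoic acid down, had 55, 13.8, 13.4 and 10.8 CPM. Of 15 such genes at the minimum, 6 were higher and 2 lower in iWAT DFAT cells, and 3 and 3 in iWAT SVF cells, with list medians of 0.57 and 0.03. Over all genes 8.74% were higher and 5.56% lower in the DFAT comparison, and 4.56% and 4.86% in the SVF comparison. Crabp2 reached the minimum through the iWAT libraries alone, so its part in these counts is no independent support for a depot difference. Of 12 genes of the caudal and posterior signals of the embryo, 3 reached the minimum. Gli2, a Hedgehog factor, had 14.1, 6.59, 22.5 and 18.2 CPM. Cdx1 had 0 to 4 UMIs, Cdx2 0 to 2 and Cdx4 none.

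Among 32 other homeobox genes at the minimum, 14 were at least 2-fold higher and 3 lower in the iWAT libraries of each culture, where 8.74% and 5.56% of all genes were in DFAT cells and 4.56% and 4.86% in SVF cells. Irx1 had 33, 0.102, 29 and 0.906 CPM, Pitx1, a hind limb factor, 7.92, 0.0108, 2.34 and 0.0354 CPM, and Lhx8 4.24, 0.00539, 4.84 and 0.00506 CPM. Alx1 had 0, 4.69, 0.01 and 6.21 CPM. This list was chosen with earlier results of these data known. Of the genes named here, Irx1, Pitx1 and Lhx8 reached the minimum through the iWAT libraries alone, and Alx1 through the eWAT libraries alone. Further higher genes of the list, not named here, also stood under 1 CPM in both eWAT libraries. The counts of this list are therefore no independent support for a depot difference. Of the 7 noncoding genes inside the Hox clusters at the minimum, 4 were past 2-fold between depots in DFAT cells and 3 in SVF cells. Hoxa11os, antisense to Hoxa11, had 2.76, 0.00539, 1.17 and 0.248 CPM, and Hoxaas3, antisense to the central HOXA genes, 1.05, 3.91, 1.43 and 4.94 CPM. Hoxb5os had 0.278, 1.51, 0.552 and 4.53 CPM and Gm53 2.07, 0.463, 3.81 and 1.93 CPM. Hotair, from the HOXC cluster, had 36, 1, 22 and 0 UMIs, and Hottip had none. Among the 7, 2 were higher and 2 lower in iWAT DFAT cells, and 1 and 2 in iWAT SVF cells, with the same shares of all genes beside them. Hoxa11os reached the minimum through the iWAT libraries alone, and Hoxb5os through the eWAT libraries alone. The counts of the noncoding genes are therefore no independent support either. Of 19 genes at the minimum that flank the clusters, 0 differed by 2-fold in any of the 4 comparisons, where 9.43% to 17.3% of all genes did. Their median log2 ratios between depots were 0.01 in DFAT cells and 0.11 in SVF cells.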

How the data were processed

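Single-cell RNA-seq counts of 4 libraries (10x 3′ chemistry) were used. The deposited counts are UMIs per gene and barcode (whole numbers, all barcodes, mm10), made by the authors with Cell Ranger. The file headers name version 7.1.0 for 3 libraries and 4 for iWAT_SVF, and the submitters' processing notes 7.0.0. The study counted introns. Whether this holds for the library of version 4, and the strand setting, were not given in the sources used here.

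Hox members and all gene lists were chosen with earlier results of these data known. Cells were taken by the limits given above, without ambient RNA removal or a doublet caller. UMIs were summed per library and scaled to CPM, with exact Poisson 95% intervals. Ratios carry exact conditional binomial intervals and shares Clopper-Pearson intervals. With 1 library per condition no test was made, and "past 2-fold" replaces a call. A cell carried a set of markers with a UMI of at least 3 of its genes. A gene without a UMI had a floor of 3 UMIs, 0.015 to 0.0163 CPM. Members at the minimum are named, and of each other list at most 5 genes past 2-fold. The retinoid genes Rdh10 and Aldh1a1 were added to these after their values were seen. The values of 1 member and of 1 other homeobox gene are not reported here, though sums and counts hold them. Ratios were tested on simulated data. Promoters came from RefSeq windows (22 of 39 members matched). The scripts ran on scipy 1.17.1 and pandas 2.3.3 under Python 3.11.15.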

Additional observations from a re-analysis of the deposited data

Results flagged for a closer look

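The depot ratios of 2 members fell on opposite sides of 0 in the DFAT and the SVF cultures. Hoxb7 had a log2 ratio of iWAT over eWAT of -0.26 in DFAT cells and 0.06 in SVF cells, and Hoxc6 had 0.10 and -0.06. Each rests on 1 library per condition, the difference was not tested, and all 4 ratios are far under 2-fold. The SVF ratio of Hoxb7 (interval 0.00 to 0.13) was also smaller in size than the shift of eWAT_SVF under median-ratio scaling (-0.08). Its sign therefore depends on the scaling.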

How the results depend on the processing

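Over 120 results and 11 other settings, 1157 of 1316 values moved by less than their counting interval and 159 moved by more. Ratios close to 0 can change sign. Median-ratio scaling shifted iWAT_DFAT by 0.08 on the log2 scale and eWAT_DFAT by 0.00, against a ratio of 0.04 for Hoxc4 between these libraries. The largest shift was that of Hoxa2 between the DFAT depots, from -2.92 to -3.73 with cells thinned to 5000 UMIs. Counts of members past 2-fold that moved are given here, and the cause was not tested unless the limit itself sets it. Between the SVF depots the 6 higher members gave 5 in cells with a Pdgfra UMI, without the 5% of cells with most UMIs, without cells with a Mki67 or Top2a UMI, with thinned cells, with median-ratio scaling, without shared barcodes or at 5 CPM, 4 at 4-fold and 7 at 0.2 CPM, and the 5 lower members gave 6 or 7 in 8 settings. Between the DFAT depots the 5 higher members gave 4 to 6, and the 6 lower members 7 with median-ratio scaling or at 0.2 CPM and 4 at 4-fold. With a minimum of 5 CPM, 3 of 20 members were lower in iWAT in the DFAT cells and 3 in the SVF cells, where a limit of 4-fold also left 3. In the inguinal depot, where none passed, 1 was higher in DFAT cells with thinned cells, with free RNA subtracted at 10% (of 27) or with a minimum of 0.2 CPM (of 30). There 1 was lower with thinned cells, with free RNA subtracted, with median-ratio scaling, in cells with a Pdgfra UMI, without the 5% of cells with most UMIs or without cells with a Mki67 or Top2a UMI. In the epididymal depot the 1 higher member gave 0 without the mitotic cells, with thinned cells or at 4-fold, and the 3 lower members gave 2 in cells with a Pdgfra UMI, without cells of other types or at 5 CPM, 4 without the mitotic cells or with free RNA subtracted, 5 of 30 at 0.2 CPM and 1 at 4-fold. Leaving out barcodes shared between libraries was chosen after seeing the data and moved none of the 120 values by more than their interval. Hoxc11 had no ratio in the settings that left it without a UMI in an eWAT library. No library could be left out and no replicate compared, with 1 per condition. No paired analysis was possible because each condition has 1 library, which leaves no spread between pairs to estimate. Depth limits the 13 members under 1 CPM and the eWAT levels of Hoxc11, which rest on 4 and 7 UMIs.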
